A study of Mus musculus with 6 samples.

Results

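The genes examined were 36 genes of motile cilia, the beating cilia of multiciliated cells, read in whole ovaries of Bnc1+/+ and Bnc1tr/tr mice. They were taken by symbol from a list of cilia genes, which was chosen with earlier results of these data known. All 36 had a row among the 44788 genes of the count table, 34 under the listed symbol and 2 under an older one, Dnaic1 for Dnai1 and Dnaic2 for Dnai2. A filter on low counts kept 33 of the 36, and Spag6, Spag16 and Spag17 did not pass it.

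Total RNA was taken from ovaries of 8-week-old C57BL/6 J mice, 3 of them wild type (Bnc1+/+, replicates 1, 4 and 7) and 3 homozygous for a truncating frameshift mutation of Bnc1 (Bnc1tr/tr, replicates 1, 2 and 3). No treatment is given for either genotype. The mutant allele was not limited to one cell type, and the labels do not say whether each ovary came from a separate mouse, so the p values measure the spread between these samples. The gene counts of an ovary added up to between 25247770 and 34406296. Expression is given as CPM, the usual count scaled to library size, with TMM factors, and 1 read was worth between 0.0302 and 0.0385 CPM. Bnc1 itself read 13.9, 13.4 and 13.1 CPM in Bnc1+/+ ovaries and 18.7, 13.7 and 11.5 CPM in Bnc1tr/tr ovaries, and gene-level counts cannot show the mutation. Markers of oocytes, granulosa cells and theca and luteal cells were present in all 6 ovaries, with summed levels of at least 524, 3090 and 2561 CPM. By the test described below, 3 of 9 oocyte markers and 1 of 8 granulosa markers were called higher in Bnc1tr/tr ovaries (background 2.88% of all genes tested), and 4 of 8 theca and luteal markers were called lower (background 4.19%).

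Motile cilia are built on an axoneme, a ring of doublet microtubules around a central pair, and bend when dynein arms on the doublets slide them past each other. Multiciliated cells line the oviduct, where their beat moves the oocyte, and are also found in the airways and the brain ventricles. FOXJ1 and the RFX factors switch on the axonemal genes in these cells, and mutations in many of these genes cause primary ciliary dyskinesia.

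RFX factors bind X-box sequences in the promoters of ciliary genes, so promoters were searched for the X-box core GTTGCC on both strands (its reverse complement is GGCAAC). Promoters of 28 of the 36 genes were matched in the RefSeq GRCm38.p6 table, from 250 bases before to 50 bases after each start site. GTTGCC was found in 13 of the 28 (46.4%), where 14.1% of all 27025 genes held it. The looser core GTTNCC was found in 22 of the 28 (78.6%) and in 48.8% of all genes. These shares are descriptions of letters in a window, and binding was not measured. A pair of cores 2 bases apart (GTTNCC, then GGNAAC) was in none of the 28 and in 0.529% of all genes. With 3 bases between GTTNCC and GNAAC, the pair was in Hydin, Spag16 and Tekt4 (10.7% of the 28, 0.936% of all genes). The forkhead motif TGTTTAC was in 1 of the 28, Ak7 (3.57%, against 4.05% of all genes), and TGTTTGT was in none (7.60% of all genes). All of these motifs were read on both strands, and GTTGCC is one form of GTTNCC. The 5 stretches below show upstream sequence of genes whose levels are described later, with the GTTGCC core on either strand in capitals. They are Hydin at chr8:110266939-110266976 (plus strand), Spag16 at chr1:69826842-69826897 (plus), Dnah10 at chr5:124725040-124725084 (plus), Tekt2 at chr4:126325689-126325735 (minus) and Rfx2 at chr17:56831094-56831149 (minus), each written 5′ to 3′ on the strand of the gene.
Hydin: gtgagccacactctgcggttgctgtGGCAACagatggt
Spag16: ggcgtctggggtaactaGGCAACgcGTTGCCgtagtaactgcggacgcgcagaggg
Dnah10: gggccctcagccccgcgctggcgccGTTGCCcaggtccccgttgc
Tekt2: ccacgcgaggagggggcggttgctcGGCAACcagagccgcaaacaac
Rfx2: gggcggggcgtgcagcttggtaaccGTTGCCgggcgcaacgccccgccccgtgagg
The core began 13 bases upstream of the RefSeq start in Hydin, 20 bases upstream in Dnah10 and 22 bases upstream in Tekt2. These 5 genes were picked from the 13 with the GTTGCC core. Hydin, Spag16 and Dnah10 shared the pattern across ovaries described below, and Tekt2 and Rfx2 did not. Of the rest of the 13, Ccdc113, Dnah7a, Dnai2, Tekt1, Tekt4 and Zmynd10 shared it, and Dnah7b and Rfx3 did not.

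The motile cilia genes were high in 1 ovary of each genotype. For 27 of the 36, Bnc1tr/tr 3 gave the highest value and Bnc1+/+ 1 the second highest, and Bnc1tr/tr 3 was the highest for 32 of the 36. Among the 33 genes that passed the filter, 24 (72.7%) had this order, against 3.34% of all 19423 genes tested. Summed over all 36 genes, the levels were 228, 154 and 139 CPM in Bnc1+/+ 1, 4 and 7 and 181, 139 and 425 CPM in Bnc1tr/tr 1, 2 and 3. Bnc1tr/tr 3 was the highest and Bnc1+/+ 1 the second highest, ahead of Bnc1tr/tr 1, and the genotypes overlapped. Summed over the 27 genes, which were set apart by this order after their values were seen, the levels were 117, 45.0 and 39.6 CPM in Bnc1+/+ 1, 4 and 7 and 40.3, 41.0 and 271 CPM in Bnc1tr/tr 1, 2 and 3. The order of these last sums was fixed by the choice of the 27 genes. The other 9 genes were Rfx2, Rfx3, Dnah2, Dnah7b, Ccdc114, Rsph9, Ccdc39, Tekt2 and Tppp3, and their sums were 111, 109 and 99.9 CPM in Bnc1+/+ and 140, 97.7 and 154 CPM in Bnc1tr/tr. The ratio of Bnc1tr/tr 3 to Bnc1+/+ 1 had a median of 1.98 over all 36 genes, from 0.876 for Dnah2 to 4.71 for Foxj1. Over the other 9 genes its median was 1.25, and over the 27, where the choice fixes it above 1, it was 2.24. In whole-ovary RNA, a difference in the number of ciliated cells and a difference in RNA per cell cannot be told apart.

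**Figure D1:**
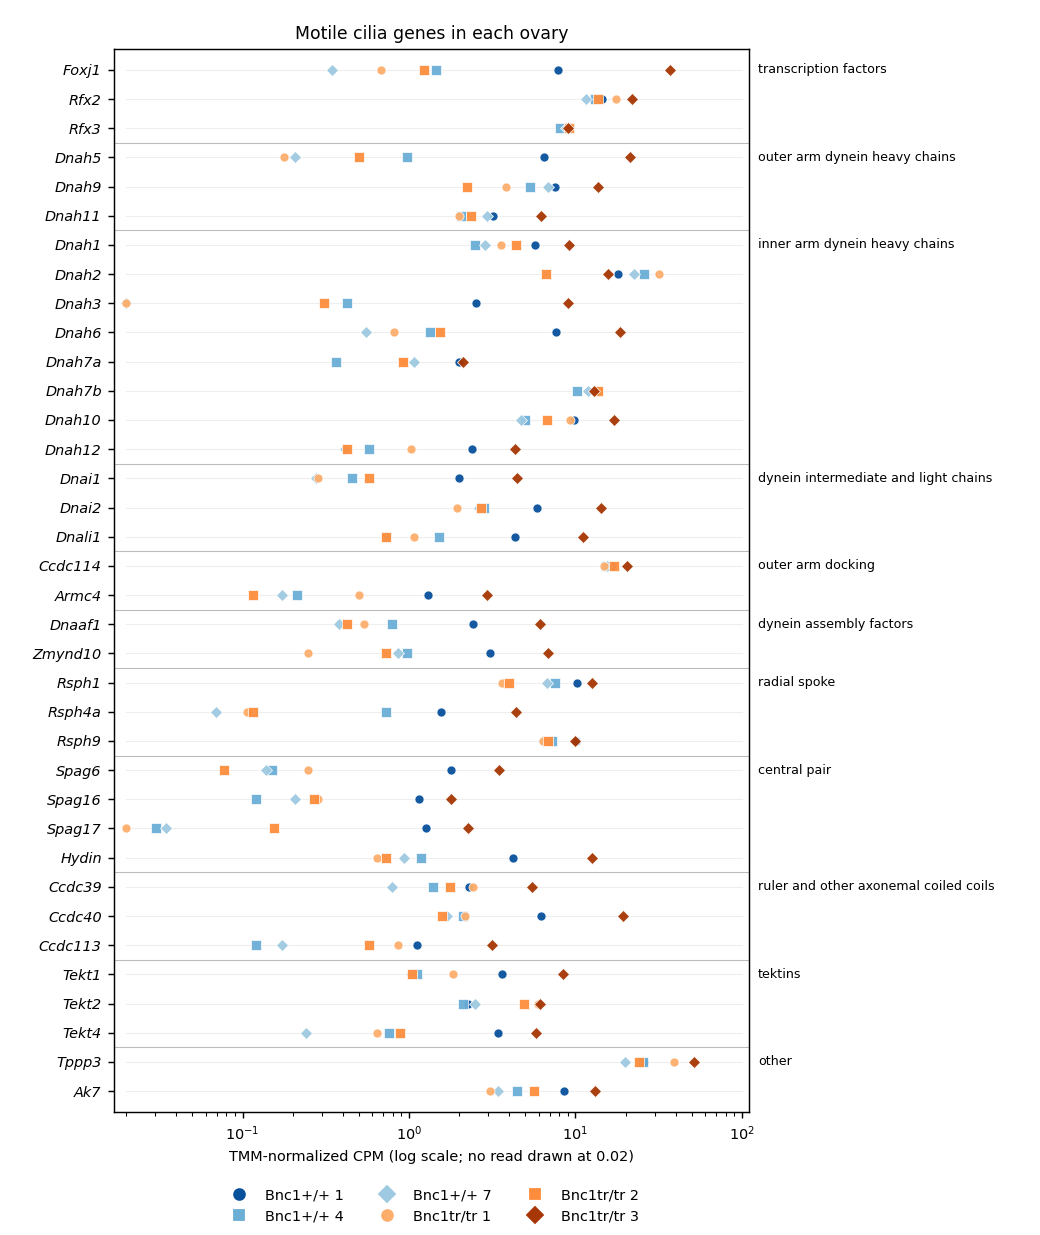
TMM-normalized CPM (log axis) of each of the 36 motile cilia genes in each ovary, with 1 point per ovary, in blue for Bnc1+/+ and orange to brown for Bnc1tr/tr, grouped by role. For 27 genes the rightmost point is Bnc1tr/tr 3 (brown diamond) and the next is Bnc1+/+ 1 (dark blue circle). Values with no read are drawn at 0.02 CPM.

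Compared between genotypes with edgeR's quasi-likelihood test, 1 of the 33 genes was called higher in Bnc1tr/tr ovaries at a Benjamini-Hochberg adjusted p under 0.05 (background 2.88% of all genes tested) and 0 were called lower (background 4.19%). The gene called was Tekt2. At an unadjusted p under 0.05 there were 3 higher (background 11.9%) and 0 lower (background 12.3%). DESeq2 (background 5.56% higher and 6.90% lower) and limma-voom (2.67% and 4.04%) also called 1 higher and 0 lower. Genotypes were free of overlap for 3 of the 33, all higher in Bnc1tr/tr (Rfx3, Dnah7b and Tekt2, background 15.0%), and for 0 that were lower (background 15.8%). These shares are near or below those of all genes. The median log2 fold change of the 33 was 0.76 and 30 of the 33 were positive, against a median of 0.02 for all genes tested. With limma-voom the median of the 33 was 0.43 and 27 of 33 were positive. Without Bnc1tr/tr 3 the median was -0.60 and 10 of 33 were positive. Without Bnc1+/+ 1 it was 1.502 and 31 of 33 were positive. Without both ovaries it was 0.12, 18 of the 30 genes still tested were positive and 0 were called (background 0.368% higher and 1.18% lower). The median thus depended on these 2 ovaries. Its size also moved with others, to 1.22 without Bnc1tr/tr 1, 1.21 without Bnc1tr/tr 2, 0.52 without Bnc1+/+ 4 and 0.45 without Bnc1+/+ 7, and when 1 ovary was left out its sign turned only without Bnc1tr/tr 3. Scaling by library size alone moved the median log2 fold change of all genes to 0.12 and that of the motile cilia genes to 0.86.

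**Figure D2:**
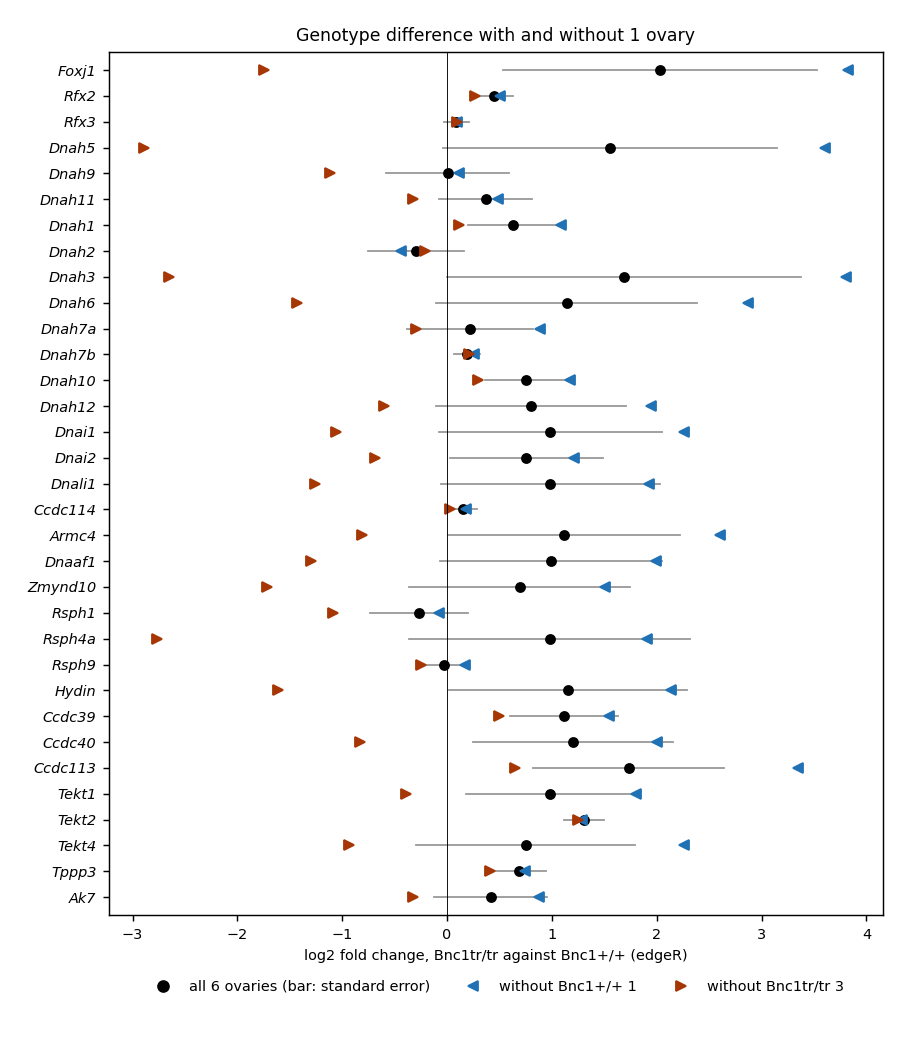
Log2 fold change of Bnc1tr/tr against Bnc1+/+ from edgeR for the 33 genes tested, with all 6 ovaries (black, bars are 1 standard error), without Bnc1+/+ 1 (blue) and without Bnc1tr/tr 3 (brown). The median moves from 0.76 to 1.502 and to -0.60, while Tekt2, Rfx3 and Dnah7b stay in place.

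The spread within a genotype was wide for these genes. The biological coefficient of variation that edgeR fitted to each gene had a median of 0.606 over the 33, against 0.156 over all genes tested, and it was over 0.5 for 19 of the 33 (57.6%, against 2.11% of all genes). The log2 range between the highest and the lowest ovary had a median of 1.73 within Bnc1+/+ (0.28 for all genes) and 2.58 within Bnc1tr/tr (0.36 for all genes). Both Bnc1+/+ 1 and Bnc1tr/tr 3 lay more than 0.5 above the mean of their genotype on the log2 scale for 22 of the 33 (66.7%), against 1.47% of all genes tested. Wide spread was not particular to these genes. For the 7 adipocyte markers described below, the median coefficient was 0.850 and the median ranges were 3.29 and 4.36, but 0 had both ovaries above 0.5. For the 73 other axonemal genes described below, 45.2% had a coefficient over 0.5 and 58.9% had both ovaries above 0.5.

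**Figure D3:**
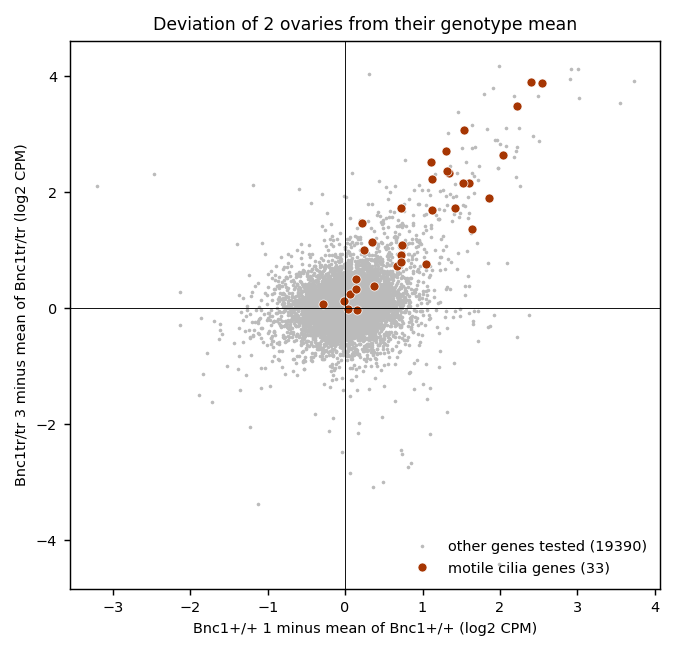
Log2 CPM of Bnc1+/+ 1 minus the mean of the Bnc1+/+ ovaries (x axis) and of Bnc1tr/tr 3 minus the mean of the Bnc1tr/tr ovaries (y axis), for the 33 motile cilia genes (brown) and the other genes tested (grey). Most motile cilia genes lie at the upper right, and 22 of the 33 are above 0.5 on both axes.

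Of the transcription factors, Foxj1 (chr11:116330704-116335399 of GRCm38, minus strand), the master regulator of motile ciliogenesis, was at 7.88, 1.45 and 0.345 CPM in Bnc1+/+ 1, 4 and 7 and at 0.676, 1.23 and 37.1 CPM in Bnc1tr/tr 1, 2 and 3. Bnc1tr/tr 3 held 1052 of its reads and Bnc1+/+ 7 held 10, so its level differed between ovaries of the same genotype far more than between genotypes. The genotype difference of Foxj1 was 2.03 on the log2 scale (standard error 1.498, with an adjusted p = 0.455 from edgeR and Benjamini-Hochberg adjustment), leaving out an ovary gave values from -1.75 to 3.82, and limma-voom gave 1.05. Rfx2 and Rfx3, its partner factors at ciliary promoters, were steadier. Rfx2 was at 14.4, 13.2 and 11.6 CPM in Bnc1+/+ and 17.6, 13.7 and 22.0 CPM in Bnc1tr/tr ovaries (a log2 difference of 0.44, standard error 0.18, adjusted p = 0.183 with edgeR). Rfx3 was at 8.77, 8.10 and 8.73 CPM in Bnc1+/+ and 9.03, 9.16 and 8.99 CPM in Bnc1tr/tr ovaries. The Rfx3 groups did not overlap, but the log2 difference was 0.09 (standard error 0.12, adjusted p = 0.701 with edgeR). Both genes are also used by cells without motile cilia.

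The outer dynein arms give the beat most of its power, and their heavy chains are Dnah5, Dnah9 and Dnah11. Dnah5 was at 6.43, 0.967 and 0.207 CPM in Bnc1+/+ ovaries and at 0.178, 0.5004 and 21.4 CPM in Bnc1tr/tr ovaries. Most of its reads came from 2 ovaries, with 607 reads in Bnc1tr/tr 3 and 173 in Bnc1+/+ 1 but at most 32 in any other. Dnah9 was at 7.58, 5.32 and 6.79 CPM in Bnc1+/+ and 3.81, 2.23 and 13.7 CPM in Bnc1tr/tr ovaries. Dnah11 was at 3.20, 2.05 and 2.93 CPM in Bnc1+/+ and 1.99, 2.35 and 6.20 CPM in Bnc1tr/tr ovaries. The last pair kept more reads in the remaining ovaries than Dnah5 did, and their lowest values were both in Bnc1tr/tr. The log2 fold changes were 1.55 for Dnah5, 0.01 for Dnah9 and 0.37 for Dnah11, with standard errors of 1.59, 0.58 and 0.44. With DESeq2 and limma-voom the sign for Dnah9 was negative.

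The inner arms shape the waveform of the beat. Dnah2 was at 18.0, 25.7 and 22.6 CPM in Bnc1+/+ and 31.5, 6.70 and 15.8 CPM in Bnc1tr/tr ovaries. It was the one motile cilia gene that was highest in Bnc1tr/tr 1, and it was lowest in Bnc1tr/tr 2. Dnah7b was at 12.9, 10.3 and 11.9 CPM in Bnc1+/+ and 13.4, 13.6 and 13.0 CPM in Bnc1tr/tr ovaries, without overlap and with a log2 difference of 0.19 (standard error 0.12, adjusted p = 0.388 with edgeR). It has close copies in Dnah7a and Dnah7c, and how reads that match several copies were counted is not given in the sources used here, so these values are uncertain. Dnah10 was at 9.85, 4.99 and 4.73 CPM in Bnc1+/+ and 9.21, 6.77 and 17.0 CPM in Bnc1tr/tr ovaries. Dnah6 was at 7.70, 1.33 and 0.552 CPM in Bnc1+/+ and 0.818, 1.54 and 18.6 CPM in Bnc1tr/tr ovaries. Dnah6 therefore followed the pattern of Foxj1, and Dnah10 did so over a smaller range. The inner arm chains Dnah1, Dnah3, Dnah7a and Dnah12 were also highest in Bnc1tr/tr 3, at 9.16, 9.06, 2.11 and 4.34 CPM. Their second highest ovary was Bnc1+/+ 1, at 5.72, 2.53, 2.01 and 2.38 CPM. Dnah3 had no read in Bnc1+/+ 7 and in Bnc1tr/tr 1, where 3 reads would be 0.103 and 0.107 CPM. None of the 8 inner arm genes passed the test.

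Intermediate and light chains complete the arms, and docking and assembly factors place them on the doublets or fold them in the cytoplasm. Dnai1, an intermediate chain of the outer arm, was at 2.01, 0.453 and 0.276 CPM in Bnc1+/+ and 0.285, 0.577 and 4.48 CPM in Bnc1tr/tr ovaries. Dnai2, the second such chain, was at 5.84, 2.81 and 2.62 CPM in Bnc1+/+ and 1.96, 2.69 and 14.3 CPM in Bnc1tr/tr ovaries. Dnali1, a light intermediate chain of the inner arm, was at 4.31, 1.51 and 0.724 CPM in Bnc1+/+ and 1.07, 0.731 and 11.1 CPM in Bnc1tr/tr ovaries. All 3 had the same pair of high ovaries. The docking gene Ccdc114 was level, at 16.4, 15.2 and 15.4 CPM in Bnc1+/+ and 14.9, 16.9 and 20.5 CPM in Bnc1tr/tr ovaries. Armc4, which also serves docking, was at 1.30, 0.211 and 0.172 CPM in Bnc1+/+ and 0.498, 0.115 and 2.96 CPM in Bnc1tr/tr ovaries. The ovary with the least Armc4, Bnc1tr/tr 2, held 3 reads. The assembly factor Dnaaf1 was at 2.42, 0.786 and 0.379 CPM in Bnc1+/+ and 0.534, 0.423 and 6.10 CPM in Bnc1tr/tr ovaries. Zmynd10, another assembly factor, was at 3.05, 0.967 and 0.862 CPM in Bnc1+/+ and 0.249, 0.731 and 6.84 CPM in Bnc1tr/tr ovaries. Bnc1tr/tr 3 and Bnc1+/+ 1 were again the high ovaries for Armc4, Dnaaf1 and Zmynd10, and none of these 7 genes passed the test.

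Radial spokes carry signals from the central pair to the arms. Rsph1, a spoke head protein, was at 10.19, 7.49 and 6.73 CPM in Bnc1+/+ and 3.63, 4.003 and 12.6 CPM in Bnc1tr/tr ovaries. Rsph9, also of the spoke head, was at 10.04, 7.19 and 6.42 CPM in Bnc1+/+ and 6.40, 6.85 and 9.94 CPM in Bnc1tr/tr ovaries. Rsph4a, of the spoke head as well, was at 1.56, 0.725 and 0.0690 CPM in Bnc1+/+ and 0.107, 0.115 and 4.37 CPM in Bnc1tr/tr ovaries. The range from ovary to ovary was thus small for Rsph9, moderate for Rsph1 and wide for Rsph4a. The log2 fold changes of Rsph1 and Rsph9 were -0.27 and -0.03, and that of Rsph9 became 0.08 when counts were scaled by library size alone.

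The central pair steadies the direction of the beat. Hydin, a very large protein of the central pair projections on chromosome 8, was at 4.24, 1.18 and 0.931 CPM in Bnc1+/+ and 0.640, 0.731 and 12.6 CPM in Bnc1tr/tr ovaries (log2 difference 1.15, standard error 1.13, adjusted p = 0.583 with edgeR). Spag6 was at 1.78, 0.151 and 0.138 CPM in Bnc1+/+ and 0.249, 0.0770 and 3.49 CPM in Bnc1tr/tr ovaries. Its symbol has been used for a pair of near-identical mouse genes, so no position is given and the counts are uncertain. Spag16 was at 1.15, 0.121 and 0.207 CPM in Bnc1+/+ and 0.285, 0.269 and 1.80 CPM in Bnc1tr/tr ovaries. Spag17 was at 1.26, 0.0302 and 0.0345 CPM in Bnc1+/+ and 0, 0.154 and 2.26 CPM in Bnc1tr/tr ovaries. Spag17 had 34 reads in Bnc1+/+ 1 and 64 in Bnc1tr/tr 3, and between 0 and 4 in the others. The 3 Spag genes had over 10 reads in Bnc1+/+ 1 and Bnc1tr/tr 3 and in no other ovary, and for this reason did not pass the filter.

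Among the coiled-coil genes, Ccdc39 and Ccdc40 form the ruler that spaces arms and spokes along the doublet. Ccdc40 was at 6.25, 2.11 and 1.69 CPM in Bnc1+/+ and 2.17, 1.58 and 19.2 CPM in Bnc1tr/tr ovaries. Ccdc39 was at 2.30, 1.39 and 0.793 CPM in Bnc1+/+ and 2.42, 1.77 and 5.50 CPM in Bnc1tr/tr ovaries. Ccdc113, which is found at the base and along the axoneme, was at 1.12, 0.121 and 0.172 CPM in Bnc1+/+ and 0.854, 0.577 and 3.14 CPM in Bnc1tr/tr ovaries. Although both ruler genes were highest in Bnc1tr/tr 3, the second highest ovary was Bnc1+/+ 1 for Ccdc40 and Bnc1tr/tr 1 for Ccdc39. Their log2 fold changes were 1.20 for Ccdc40, 1.11 for Ccdc39 and 1.73 for Ccdc113, with standard errors of 0.95, 0.52 and 0.91, and none passed the test. Without Bnc1tr/tr 3 they were -0.83, 0.49 and 0.65, and without Bnc1+/+ 1 they were 1.998, 1.55 and 3.35.

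Tektins are filaments inside the doublets, and Tekt2 was the exception to the pattern. Tekt2 (chr4:126322121-126325688, minus strand) was at 2.27, 2.11 and 2.48 CPM in Bnc1+/+ ovaries and at 5.98, 4.89 and 6.13 CPM in Bnc1tr/tr ovaries. All 3 Bnc1tr/tr ovaries lay above all 3 Bnc1+/+ ovaries, and Bnc1+/+ 1 and Bnc1tr/tr 3 did not stand apart. Tekt2 rose by 1.31 on the log2 scale (standard error 0.19, adjusted p = 0.00852 with edgeR and Benjamini-Hochberg adjustment), from 2.29 ± 0.185 to 5.67 ± 0.678 CPM (SD, n = 3). The adjusted p with edgeR was 0.0586 without Bnc1+/+ 4 and 0.0909 without Bnc1+/+ 1 and Bnc1tr/tr 3, at log2 fold changes of 1.24 and 1.23. Of the exon bases of Tekt2, 20.8% lie over those of Gm12945 on the opposite strand, and whether counting used the strand is not given in the sources used here, so reads of the pair cannot be told apart there. The oocyte markers summed to 686, 645 and 524 CPM in Bnc1+/+ and 1003, 656 and 1000.3 CPM in Bnc1tr/tr ovaries. The granulosa markers summed to 3477, 4078 and 3090 CPM in Bnc1+/+ and 5561, 3494 and 4893 CPM in Bnc1tr/tr ovaries. Of the Bnc1tr/tr ovaries, replicate 2 was lowest for both sums, as for Tekt2. There both sums lay inside the Bnc1+/+ range, and Tekt2 did not. The part of either list in the Tekt2 difference was not tested. Tekt1 was at 3.61, 1.12 and 1.03 CPM in Bnc1+/+ and 1.85, 1.04 and 8.42 CPM in Bnc1tr/tr ovaries. Tekt4 was at 3.42, 0.755 and 0.241 CPM in Bnc1+/+ and 0.640, 0.885 and 5.82 CPM in Bnc1tr/tr ovaries. Tekt1 and Tekt4, unlike Tekt2, kept the order with Bnc1tr/tr 3 first and Bnc1+/+ 1 second.

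Tppp3, which binds and bundles microtubules, had the highest mean level, at 26.0, 25.4 and 20.0 CPM in Bnc1+/+ and 39.2, 24.1 and 51.8 CPM in Bnc1tr/tr ovaries. Tppp3 differed by 0.69 on the log2 scale (standard error 0.25, adjusted p = 0.15 with edgeR), and it passed the test only without Bnc1tr/tr 2, the one Bnc1tr/tr ovary inside the Bnc1+/+ range (adjusted p = 0.0287 with edgeR). Ak7, an adenylate kinase of cilia, was at 8.51, 4.47 and 3.41 CPM in Bnc1+/+ and 3.06, 5.66 and 13.1 CPM in Bnc1tr/tr ovaries. Ak7 had the pattern of the majority and Tppp3 did not, since its second highest ovary was Bnc1tr/tr 1.

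Per kilobase of exon, which allows levels of different genes to be set side by side, Tppp3 was first of the 35 genes with a length in all 6 ovaries, at 10.8 to 28.0 CPM per kilobase. The order of the others changed with the ovary. Foxj1 was second in Bnc1tr/tr 3, at 14.1 CPM per kilobase, and in place 4 in Bnc1+/+ 1, at 3.004, but was at place 22 in Bnc1+/+ 7, at 0.131. Rsph1 and Rsph9 held places 2 to 4 in every ovary, and Ccdc114 places 4 to 7. In Bnc1tr/tr 3 the 11 dynein heavy chain genes held places 18 to 35, with Dnah5 at 1.37 CPM per kilobase, while Dnah2 was in place 6 in Bnc1+/+ 4 and 7 and in place 7 in Bnc1tr/tr 1.

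Parts of the exons of 16 of the 35 genes lie over exons of a gene on the opposite strand, so without strand their counts can hold reads of the other gene. After Tekt2 the largest shares of single pairs were 20.7% for Dnaaf1 (with Taf1c), 16.9% for Ccdc39 (with Ttc14) and 10.5% for Dnah3 (with Lyrm1), and Spag17 lies over both Wdr3 (9.66%) and Spag17os (6.08%). Taf1c and Ttc14 were at 33.0 to 39.3 and 33.3 to 38.4 CPM in the 6 ovaries and were not highest in Bnc1+/+ 1 and Bnc1tr/tr 3.

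Regulators of multiciliation, several of which act upstream of FOXJ1, were read from a list of their own. Gmnc and Mcidas, which start the multiciliated cell programme, had at most 2 and 5 reads in any ovary, and Cdc20b at most 2, too few to show an order. Of the 12 multiciliation regulators tested, 3 were called higher in Bnc1tr/tr ovaries (background 2.88%) and 0 lower (background 4.19%). The genotypes did not overlap for 9 of the 12, with 8 higher in Bnc1tr/tr (background 15.0%) and 1 lower (background 15.8%). Foxn4, a forkhead factor, was at 0.335, 0.0302 and 0.103 CPM in Bnc1+/+ and 5.66, 3.66 and 5.18 CPM in Bnc1tr/tr ovaries. Trp73, the p53 relative that acts upstream of Foxj1, was at 2.34, 0.967 and 1.03 CPM in Bnc1+/+ and 4.98, 3.89 and 7.16 CPM in Bnc1tr/tr ovaries. Ccno, a cyclin-like gene needed for centriole amplification, was at 46.8, 45.2 and 38.2 CPM in Bnc1+/+ and 82.3, 53.2 and 79.4 CPM in Bnc1tr/tr ovaries. None of the 3 overlapped between genotypes, and all had their lowest Bnc1tr/tr value in replicate 2, like Tekt2. The sums of the oocyte and of the granulosa markers were lowest there too, and their part was not tested. The log2 fold changes were 4.98 for Foxn4 (adjusted p = 0.00407), 1.89 for Trp73 (0.0336) and 0.72 for Ccno (0.0461), with standard errors of 0.57, 0.40 and 0.17 in edgeR. Foxn4 stayed past the threshold whichever ovary was left out. Trp73 lost its call without Bnc1+/+ 4 or 7 or Bnc1tr/tr 1 or 3 (adjusted p up to 0.146 with edgeR), and Ccno without any ovary but Bnc1tr/tr 2 (up to 0.157).

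Within the same list, 2 genes did follow the motile cilia pattern. Ccdc78, a deuterosome gene, was at 4.09, 0.483 and 0.103 CPM in Bnc1+/+ and 0, 0.423 and 8.32 CPM in Bnc1tr/tr ovaries. Myb was at 1.64, 0.332 and 0.517 CPM in Bnc1+/+ and 0.498, 0.654 and 3.10 CPM in Bnc1tr/tr ovaries. Deup1 (row Ccdc67), the organizer of the deuterosome, was lower in all 3 Bnc1tr/tr ovaries, at 1.64, 1.45 and 2.28 CPM in Bnc1+/+ and 0.782, 0.5004 and 1.13 CPM in Bnc1tr/tr ovaries, and did not pass the test (adjusted p = 0.0963 with edgeR). The centriole and cell cycle genes Plk4, Cep152, E2f4 and E2f5 and the factors Rfx1 and Rfx4 had log2 fold changes from 0.15 to 0.91, and none passed the test.

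Other genes of the axoneme were read from a second list. Of its 73 genes tested, 47 (64.4%, against 3.34% of all genes tested) had Bnc1tr/tr 3 first and Bnc1+/+ 1 second. Of the 73, 0 were called higher (background 2.88%) and 1 was called lower (background 4.19%), both below the share of all genes. The gene called was Spag1, a dynein assembly factor, at 56.7, 72.3 and 112.6 CPM in Bnc1+/+ and 30.3, 25.5 and 29.3 CPM in Bnc1tr/tr ovaries. Spag1 fell in all 3 Bnc1tr/tr ovaries, by 1.51 on the log2 scale (standard error 0.23, adjusted p = 0.0113 with edgeR), and without Bnc1+/+ 4 the adjusted p was 0.0532. Of the 8 theca and luteal markers, 4 were also called lower (background 4.19%), namely Star, Cyp11a1, Lhcgr and Prlr. Lhcgr, with the lowest log2 fold change of the 8, was at 544 to 800.1 CPM in Bnc1+/+ and 79.0 to 92.8 CPM in Bnc1tr/tr ovaries. Cyp17a1, Insl3, Parm1 and Akr1c18 overlapped between genotypes and were not called, and Cyp17a1 had a positive log2 fold change (0.66). The part of these markers in the Spag1 difference was not tested. The most abundant genes of the list, Tubb4b, Spag1, Rsph3a and Dnaaf5, did not have the motile cilia order. Tubb4b, a tubulin of cilia that other cells also use, was at 311, 313 and 253 CPM in Bnc1+/+ and 296, 290 and 388 CPM in Bnc1tr/tr ovaries. Rsph3a was lowest in Bnc1+/+ 7 (27.9 CPM) and highest in Bnc1tr/tr 2 (56.0 CPM). Dnaaf5 ranged from 35.5 to 44.2 CPM.

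Intraflagellar transport genes serve motile and primary cilia alike. The 30 genes summed to 955, 914 and 942 CPM in Bnc1+/+ and 898, 913 and 943 CPM in Bnc1tr/tr ovaries. None of the 30 had the order of the motile cilia genes, and 0 were called (1 higher and 3 lower at an unadjusted p under 0.05, where the background is 11.9% and 12.3%, and 0 with an adjusted p under 0.05 in edgeR). The most abundant were Ift46, Ift172, Ift20 and Ift140. Ift46 was at 76.4 to 85.5 CPM in Bnc1+/+ and 69.2 to 72.4 CPM in Bnc1tr/tr ovaries. Ift172 was at 70.2 to 77.1 and 70.7 to 75.0 CPM. Ift20 was at 65.3 to 72.3 CPM in Bnc1+/+ and 58.5 to 64.6 CPM in Bnc1tr/tr ovaries. Ift140 was at 52.1 to 62.3 CPM in Bnc1+/+ and 64.6 to 67.2 CPM in Bnc1tr/tr ovaries. The level of this list was thus nearly even over the ovaries in which the motile cilia genes differed.

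Sperm flagella share many axonemal genes, and a list of genes of sperm flagella and male germ cells was checked. Akap4, Tnp1 and Tnp2 had no read in any ovary, and Prm1, Odf1 and Akap3 had at most 4. Prm2 had 20 reads in Bnc1tr/tr 1 and at most 5 in any other ovary. Dnah8, a dynein heavy chain, was at 7.32, 7.01 and 7.24 CPM in Bnc1+/+ and 10.7, 8.58 and 10.3 CPM in Bnc1tr/tr ovaries, without overlap but not past the test (adjusted p = 0.0919 with edgeR), and Dnah17 had 85 to 183 reads. Of the 5 genes of this list that were tested, 0 were called by edgeR (background 2.88% higher and 4.19% lower), 1 was higher and 0 lower at an unadjusted p under 0.05 (background 11.9% and 12.3%), and 1, Spata18, had the motile cilia order. Tekt3, which did not pass the filter, had that order too, with 6 reads in Bnc1+/+ 1, 12 in Bnc1tr/tr 3 and at most 1 in any other. Tekt5, Cabyr and Tssk6, with 2 to 12, 5 to 24 and 8 to 38 reads, did not have it.

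Cells of the oviduct were sought through 10 genes listed as markers of its secretory epithelium. How particular each is to the oviduct was not tested. Ovgp1, the oviductal glycoprotein, was at 106, 11.7 and 15.1 CPM in Bnc1+/+ and 1.60, 18.0 and 423 CPM in Bnc1tr/tr ovaries. Bnc1tr/tr 3 and Bnc1+/+ 1 were again the high ovaries, and Ovgp1 was the 1 of the 9 markers tested with that order. Ovgp1 differed by 1.75 on the log2 scale (standard error 1.59, adjusted p = 0.552 with edgeR) and turned negative, to -2.18, without Bnc1tr/tr 3. Pax8 was at 1.19, 0.423 and 0.448 CPM in Bnc1+/+ and 1.49, 1.73 and 3.21 CPM in Bnc1tr/tr ovaries. Muc1 was at 1.90, 1.39 and 1.03 CPM in Bnc1+/+ and 1.24, 2.002 and 5.11 CPM in Bnc1tr/tr ovaries. Both were highest in Bnc1tr/tr 3 with Bnc1tr/tr 2 second. Of the 9 markers tested, 2 were called higher in Bnc1tr/tr ovaries (background 2.88%) and 0 lower (background 4.19%). The genotypes did not overlap for 5 that were higher (background 15.0%) and for 0 that were lower (background 15.8%). At an unadjusted p under 0.05 with edgeR, 5 were higher (background 11.9%) and 0 lower (background 12.3%). The genes called were Pax2 and Wnt7a (log2 fold changes 1.77 and 1.64, adjusted p = 0.033 and 0.0451 with edgeR), both highest in Bnc1tr/tr 1. Sox17, Emx2, Krt7 and Epcam did not have the order either. They were present in all 6 ovaries, at 11.6 to 19.8, 16.7 to 28.8, 37.2 to 57.4 and 14.0 to 24.7 CPM. Lhx1 had no read. The 10 markers summed to 204, 106 and 117 CPM in Bnc1+/+ and 121, 140 and 540 CPM in Bnc1tr/tr ovaries, a sum in which Ovgp1 was the largest part in Bnc1+/+ 1 and Bnc1tr/tr 3. The sum had Bnc1tr/tr 3 first and Bnc1+/+ 1 second, and 8 of the 9 markers tested did not have that order one by one. A marker that ovarian cells also express need not show this order, and which cells expressed these markers was not tested. Both Bnc1+/+ 1 and Bnc1tr/tr 3 lay more than 0.5 above the log2 mean of their genotype for 2 of the 9. This was 22.2%, against 1.47% of all genes tested. The motile cilia genes are called here by their function in cilia alone. How much oviduct tissue the samples held was not tested.

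Smooth muscle markers, which the oviduct wall and the ovary both express, summed to 2287, 2055 and 2102 CPM in Bnc1+/+ and 2124, 2367 and 2300.2 CPM in Bnc1tr/tr ovaries, and 0 of 9 had the motile cilia order. The markers of ovarian surface epithelium and mesothelium summed to 364 to 422 CPM in Bnc1+/+ and 390 to 536 CPM in Bnc1tr/tr ovaries, with 0 of 11 in that order. The adipocyte markers, for fat around the ovary, summed to 53.1, 16.8 and 94.8 CPM in Bnc1+/+ and 364, 263 and 36.4 CPM in Bnc1tr/tr ovaries. Bnc1tr/tr 3 was the lowest Bnc1tr/tr ovary for these, so this list did not follow the motile cilia genes.

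**Figure D4:**
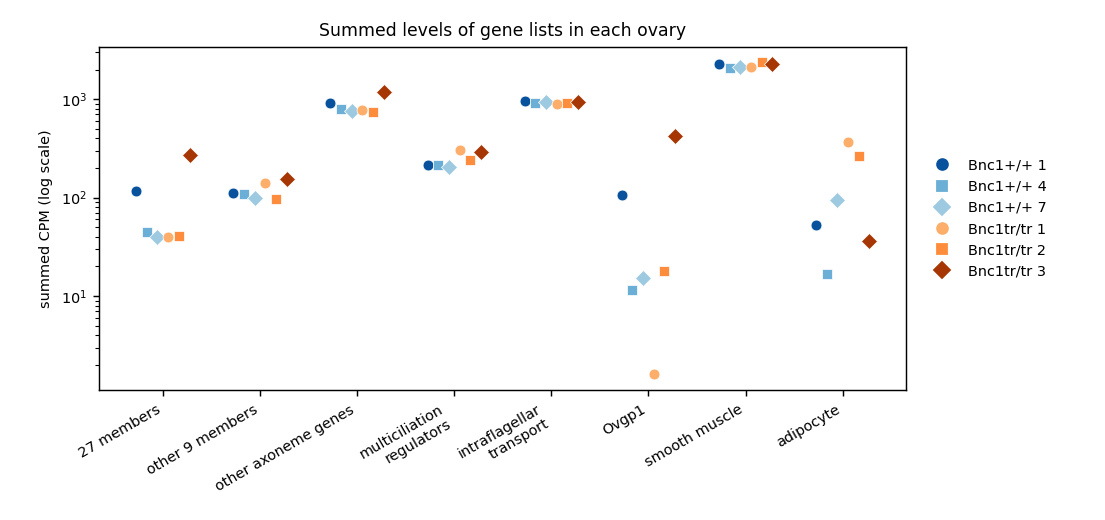
Summed TMM-normalized CPM (log axis) of gene lists, and the CPM of Ovgp1, with 1 point per ovary. The 27 motile cilia genes and Ovgp1 are highest in Bnc1tr/tr 3 (271 and 423 CPM) and second in Bnc1+/+ 1 (117 and 106 CPM). The 27 genes were chosen by this order, which fixes the order of their sum. All 36 genes sum to 425 CPM in Bnc1tr/tr 3, 228 CPM in Bnc1+/+ 1 and 139 to 181 CPM in the other ovaries. Intraflagellar transport and smooth muscle are nearly level, and the adipocyte markers are high in Bnc1tr/tr 1 and 2.

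The 10 other genes whose centred log2 CPM over the 6 ovaries lay nearest to the mean profile of the motile cilia genes were Gm973, Lrrc48, Ccdc151, Wdr65, Fam47e, Odf3b, 1700101E01Rik, Smim5, Bcas1 and 6820408C15Rik, with root mean square distances from 0.116 to 0.2502. Wdr65, Odf3b and 1700101E01Rik belong to the second list of axonemal genes above. Lrrc48 and Ccdc151 are older symbols of axonemal genes, of the dynein regulatory complex and of outer arm docking. Lrrc48 was at 9.44, 2.90 and 2.41 CPM in Bnc1+/+ and 3.52, 3.43 and 17.3 CPM in Bnc1tr/tr ovaries. Ccdc151 was at 2.08, 0.695 and 0.414 CPM in Bnc1+/+ and 0.605, 0.770 and 3.63 CPM in Bnc1tr/tr ovaries. All 10 were highest in Bnc1tr/tr 3 and second highest in Bnc1+/+ 1, as the profile by which they were chosen is.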

How the data were processed

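RNA isolated with TRIzol was made into libraries for single-end reads on an Ion Proton sequencer, and the authors deposited raw counts, whole numbers of reads per gene symbol, for 6 ovaries (25247770 to 34406296 per ovary). The aligner, the counter and its strand setting are not given in the sources used here. The submitters' processing notes list the mouse build mm10 and, unexplained, the pig build Sscrofa10.2.

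Genes were filtered with edgeR's filterByExpr (minimum count 10), which kept 19423 of 31717 genes with a count, and scaled with TMM. The quasi-likelihood test of edgeR 4.0.16 under R 4.3.3 was two-sided, and its p values were Benjamini-Hochberg adjusted over all genes tested, with calls at 0.05. Log2 CPM used a prior count of 2. Positions and exon lengths came from GENCODE M21 (GRCm38), with overlapping exons of a gene merged, and promoters from RefSeq (GRCm38.p6). The members and lists were chosen with earlier results of these data known. Values per ovary were given for up to 4 genes of each role by mean CPM, and further for every gene called or without overlap. Where a role held more, the remaining genes were given in their highest and second highest ovaries. Of the other axonemal and transport genes the 4 most abundant and any called were named, of the regulators all tested, and of the nearest 10 genes those with a mean of at least 1 CPM entered. Lrrc48 and Ccdc151 were detailed after their values were seen, as were the markers singled out from the cell type lists. Further, longer forms of the promoter motifs were looked at and are not given. Alternatives were DESeq2 1.42.0 and its size factors, library size alone, other filters, limma-voom 3.58.1, a robust fit and leaving out ovaries. The pipeline was tested on simulated data.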

Additional observations from a re-analysis of the deposited data

How the results depend on the processing

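With 3 ovaries per genotype and the spread of these genes, most genotype differences could not be separated from differences between ovaries, and Spag6, Spag16 and Spag17 had 8 reads or fewer in 4 of the 6 ovaries. Under the other filters, scalings and fits, 1 motile cilia gene, Tekt2, was called higher (background 1.97% to 5.73%) and 0 lower (background 2.85% to 6.90%). Leaving out 1 ovary gave 0 to 2 called higher (background 0.47% to 3.09%) and a median log2 fold change from -0.60 to 1.502. Without Bnc1+/+ 1 and Bnc1tr/tr 3 together, chosen after seeing the data, 0 were called higher (background 0.368%). Of the 181 genes tested in the other lists, 11 were called higher (background 2.88%) and 5 lower (background 4.19%), 17 higher and 6 lower with DESeq2 (background 5.56% and 6.90%), 1 to 14 higher (background 0.47% to 3.09%) and 1 to 5 lower (background 1.13% to 3.30%) when 1 ovary was left out, and 3 higher and 3 lower without both ovaries (background 0.368% and 1.18%).

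Signs that turned were these. Without both ovaries, log2 fold changes were -0.83 for Dnah5, -1.01 for Dnah9, -0.21 for Dnah11, -0.23 for Dnai2, -0.33 for Dnali1, -0.30 for Dnaaf1, -0.92 for Zmynd10, -0.63 for Hydin, -0.0324 for Ccdc40 and -0.46 for Ovgp1. Dnah9 was at -0.0023 with DESeq2, and limma-voom gave -0.38 for Dnah9, -0.27 for Zmynd10, -0.12 for Rsph4a and -0.13 for Ovgp1. Rsph9 was at 0.0764 with library size alone. Leaving out 1 ovary, the values ran from -0.33 to 0.88 for Ak7, -0.81 to 2.60 for Armc4, -0.83 to 1.998 for Ccdc40, -1.29 to 1.99 for Dnaaf1, -0.33 to 0.65 for Dnah11, -0.60 to 1.95 for Dnah12, -0.98 to 0.0938 for Dnah2, -2.66 to 3.80 for Dnah3, -2.89 to 3.61 for Dnah5, -1.43 to 2.87 for Dnah6, -0.29 to 0.89 for Dnah7a, -1.11 to 0.41 for Dnah9, -1.06 to 2.26 for Dnai1, -0.69 to 1.21 for Dnai2, -1.26 to 1.92 for Dnali1, -1.75 to 3.82 for Foxj1, -1.61 to 2.13 for Hydin, -1.09 to 0.035 for Rsph1, -2.76 to 1.90 for Rsph4a, -0.25 to 0.18 for Rsph9, -0.40 to 1.80 for Tekt1, -0.93 to 2.26 for Tekt4, -1.72 to 1.502 for Zmynd10 and -2.18 to 3.46 for Ovgp1. With no turn of sign they ran from 0.11 to 1.08 for Dnah1, 0.30 to 1.17 for Dnah10, 0.65 to 3.35 for Ccdc113, 0.49 to 1.55 for Ccdc39, 0.26 to 0.60 for Rfx2 and 0.41 to 0.93 for Tppp3. The cause was not tested. No paired analysis was possible because the study, which compared littermates, does not say which ovaries share a litter. The replicate numbers are not said to mark pairs.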
